A study of Mus musculus with 75 samples.

Results

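The immunoglobulin genes described here were the constant (C), variable (V), joining (J) and diversity (D) segments of the Ensembl release 96 annotation that reached at least 50 counts summed over 75 mouse lung libraries. Of 264 such segments in the count table, 194 met this rule, out of 55536 annotated genes. They comprised 12 of 13 C genes, 172 of 218 V genes, 10 of 14 J genes and 0 of 19 D genes, and 18 of the 70 remaining segments had no count in any mouse. The heavy chain locus (*Igh*, chromosome 12) gave 8 C, 86 V and 4 J genes, the kappa light chain locus (*Igk*, chromosome 6) gave 1 C, 83 V and 5 J genes, and the lambda light chain locus (*Igl*, chromosome 16) gave 3 C, 3 V and 1 J gene. The rule used the summed counts and no comparison between groups. The members just inside it were *Igkv4-54* with 50 counts, *Iglj1* with 51 and *Ighv3-3* with 52, and those just outside were *Ighv1-67* with 48, *Ighv7-4* with 44 and *Ighv2-6-8* with 41.

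An antibody is built from heavy and light chains, and each chain is read from a V segment joined to a J segment, with a D segment between them in heavy chains, and spliced to a C segment. B cells that have not met antigen carry IgM and IgD (*Ighm*, *Ighd*), whereas class switching replaces them with IgG (*Ighg1*, *Ighg2b*, *Ighg2c*, *Ighg3*), IgE (*Ighe*) or IgA (*Igha*), the isotype of mucosal surfaces including the airways. The descendants of one B cell share the same V segments, and plasma cells, the antibody-secreting end stage, hold far more immunoglobulin mRNA per cell than B cells do.

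The study followed bleomycin-induced lung fibrosis (BLEO-IPF) in male C57BL/6JRj mice, aged 12 to 14 weeks when bleomycin was given. CTRL mice (n = 10) were labelled as given saline, although the treatment protocol calls them untreated. The labels give no day for them, and every bleomycin day was compared with these same mice. Day after bleomycin and age were therefore not separated. BLEO-IPF mice had 1 intratracheal instillation of bleomycin sulphate, a DNA-breaking agent that injures the lung, and were killed on day 7 (n = 10), 14, 21, 28, 35 (n = 12 each) or 42 (n = 7). Only BLEO-IPF mice that had lost 5 to 17% of body weight by day 6 entered the study. PolyA RNA of the inferior lobe of each mouse was sequenced, so the libraries held lung tissue: the lung genes *Sftpc*, *Sftpb* and *Ager* were present in every group. The paper states that lungs were rinsed with saline for lavage fluid before they were excised. Cells washed out of the airspaces were thus not in the libraries. Library totals ranged from 9240291 to 14665247 counts with a median of 10677163, and the immunoglobulin genes took from 0.0211% to 1.24% of a library. In such bulk tissue, more cells of a type and more RNA per cell cannot be told apart.

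The V segments below are shown because each took the largest share of heavy chain or kappa V counts in mice that the results turn on. They are the last bases of the V exon, read 5′ to 3′ on the coding strand from GENCODE vM21 transcripts (GRCm38). Capitals mark an in-frame TANTNNTGN, searched on the coding strand alone. It covers the codons of the conserved tyrosine, tyrosine or phenylalanine, and cysteine near the end of a V segment. Of the 172 V members, 170 (98.8%) held it at any in-frame position. In 88 of them the last match ended within 20 bases of the end. The segments shown are *Igkv19-93* (chr6:68736297-68736594, minus strand), *Ighv3-6* (chr12:114288152-114288451, minus), *Ighv1-76* (chr12:115847881-115848180, minus) and *Ighv7-1* (chr12:113896408-113896707, minus).
Igkv19-93: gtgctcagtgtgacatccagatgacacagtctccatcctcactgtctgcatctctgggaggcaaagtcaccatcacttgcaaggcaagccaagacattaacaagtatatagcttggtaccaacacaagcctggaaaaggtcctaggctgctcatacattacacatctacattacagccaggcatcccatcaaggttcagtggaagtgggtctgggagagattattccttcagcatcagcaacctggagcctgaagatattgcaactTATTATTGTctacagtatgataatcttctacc
Ighv3-6: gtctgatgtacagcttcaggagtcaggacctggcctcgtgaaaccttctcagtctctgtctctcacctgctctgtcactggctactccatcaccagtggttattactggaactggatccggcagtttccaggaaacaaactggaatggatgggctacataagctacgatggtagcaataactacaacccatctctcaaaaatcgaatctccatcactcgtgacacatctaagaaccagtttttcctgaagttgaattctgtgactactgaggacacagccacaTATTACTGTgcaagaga
Ighv1-76: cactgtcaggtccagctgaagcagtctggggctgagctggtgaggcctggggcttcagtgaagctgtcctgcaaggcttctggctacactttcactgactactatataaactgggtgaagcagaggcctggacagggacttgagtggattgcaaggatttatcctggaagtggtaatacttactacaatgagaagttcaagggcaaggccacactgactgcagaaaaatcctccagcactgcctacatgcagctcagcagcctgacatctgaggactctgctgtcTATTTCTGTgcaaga
Ighv7-1: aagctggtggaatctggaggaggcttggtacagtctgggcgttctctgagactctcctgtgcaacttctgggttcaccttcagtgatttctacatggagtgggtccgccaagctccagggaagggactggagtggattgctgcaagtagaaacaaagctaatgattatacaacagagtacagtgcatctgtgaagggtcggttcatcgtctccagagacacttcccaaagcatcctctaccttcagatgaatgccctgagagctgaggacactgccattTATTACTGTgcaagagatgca

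Some V segments are close copies of each other, which limits what a 75-base read can assign. *Igkv10-96* (chr6:68631963-68632260, minus strand), the leading kappa V gene of 10 mice, and *Igkv10-94* (chr6:68704508-68704805, minus), the leading one of day 42 replicate 4, differed at 16 of 298 bases, shown in capitals.
Igkv10-96: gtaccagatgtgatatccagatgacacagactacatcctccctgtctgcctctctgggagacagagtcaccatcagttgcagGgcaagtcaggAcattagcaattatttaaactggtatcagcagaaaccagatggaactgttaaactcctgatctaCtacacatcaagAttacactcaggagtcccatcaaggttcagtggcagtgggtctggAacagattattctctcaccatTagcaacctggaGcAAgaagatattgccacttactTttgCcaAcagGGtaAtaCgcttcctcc
Igkv10-94: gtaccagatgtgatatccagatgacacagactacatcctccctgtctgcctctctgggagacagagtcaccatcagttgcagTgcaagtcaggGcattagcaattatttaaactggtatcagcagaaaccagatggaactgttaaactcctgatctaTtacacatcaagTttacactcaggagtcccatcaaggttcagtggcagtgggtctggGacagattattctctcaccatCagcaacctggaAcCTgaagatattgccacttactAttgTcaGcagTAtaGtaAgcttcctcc
Of the 75-base windows of *Igkv10-96*, 20% occurred in a transcript of another gene, and the value was 23.8% for *Igkv10-94*, 16.2% for *Ighv1-26* and 0% for *Igkv19-93*, *Ighv3-6*, *Ighv1-76* and *Ighv7-1*. The C genes were nearly unique, with at most 0.931% of windows shared, except *Iglc3* at 7.14%, whose sequence is 94.9% identical to *Iglc2*. *Igkc* and the kappa J segments overlap the gene *Gm30211* on the same strand (675 counts). *Iglc1*, *Iglc3* and *Iglv1* overlap *2010309G21Rik* on the opposite strand (136 counts). The strand setting of the counting was not given in the sources used here.

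J segments are shown for their conserved motif and for their short length, which leaves few reads to count. Capitals mark TGGGGNNNNGGN in heavy chain J segments and TTNGGNNNNGGN in kappa J segments, searched on the coding strand, which 8 of the 9 segments held (*Igkj3* did not).
Ighj1: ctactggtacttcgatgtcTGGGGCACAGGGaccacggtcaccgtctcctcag
Ighj2: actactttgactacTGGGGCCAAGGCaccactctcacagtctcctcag
Ighj3: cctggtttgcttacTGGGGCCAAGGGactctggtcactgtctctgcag
Ighj4: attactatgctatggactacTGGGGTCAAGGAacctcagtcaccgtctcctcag
Igkj1: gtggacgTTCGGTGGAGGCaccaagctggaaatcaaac
Igkj2: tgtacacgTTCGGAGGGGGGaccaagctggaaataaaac
Igkj3: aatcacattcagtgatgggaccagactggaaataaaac
Igkj4: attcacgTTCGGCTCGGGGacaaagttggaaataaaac
Igkj5: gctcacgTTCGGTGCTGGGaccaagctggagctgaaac
*Ighj4* took 47.1% of the heavy chain J counts of all mice (657 counts), *Ighj1* 29.8%, *Ighj2* 12.8% and *Ighj3* 10.3%. Of the kappa J counts, *Igkj5* took 29.2% (319 counts), *Igkj3* 25.9%, *Igkj4* 24.04%, *Igkj2* 14.7% and *Igkj1* 6.22%. No J segment was compared between groups by share, since their medians were 0 to 5 counts a mouse.

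The total level of immunoglobulin mRNA was highest on the late days and uneven between mice. It is given as a description, with no test. Summed over the heavy chain C genes, levels in library-scaled counts (CPM) ran from 196.5 to 398 in CTRL mice, with a median of 306. They were 138 to 530 (median 231) on day 7, 138 to 1719 (median 388) on day 14 and 169 to 1027 (median 502) on day 21. They then reached 191 to 3236 (median 1082) on day 28, 459 to 6827 (median 726) on day 35 and 441 to 2465 (median 590.5) on day 42. All 12 mice of day 35 and all 7 of day 42 lay above every CTRL mouse, against 10 of 12 on day 28, 8 of 12 on day 21, 6 of 12 on day 14 and 1 of 10 on day 7. The light chain C genes and the V genes gave the same counts of mice on each day. Light chain C levels had a median of 142 CPM in CTRL and 357 CPM on day 35, and V genes had 68.7 and 267 CPM.

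**Figure D1:**
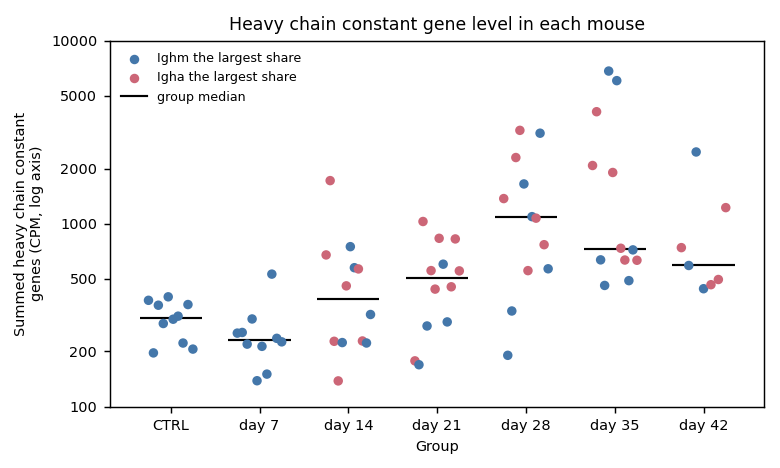
Summed level of the heavy chain constant genes (CPM, log axis) in each of the 75 mice by group, with the group median as a line and points coloured by the isotype with the largest share. All mice of days 35 and 42 lie above the highest CTRL mouse (398 CPM), and the 2 highest mice are day 35 replicates 5 (6827 CPM) and 7 (6051 CPM).

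Compared to CTRL, 138 immunoglobulin genes could be tested in a negative binomial model over all mice (edgeR quasi-likelihood test, Benjamini-Hochberg adjustment over 16221 genes, threshold 0.05). On day 7, 1 of them was higher and 0 were lower, whereas 24.8% of all genes tested were higher and 21% lower; at an unadjusted p under 0.05 the counts were 1 and 1, and DESeq2 called 2 and 2. The gene was *Ighv12-3*, which ranged from 0 to 0.10 CPM in CTRL and from 0 to 5.33 CPM on day 7, and made up 21.0% of the heavy chain V counts of day 7 replicate 9. On day 14, 36 were higher and 2 lower (all genes: 32.4% and 29.9%), and on day 21, 23 were higher and 1 lower (all genes: 28.3% and 25.8%). On day 28, 106 were higher and 1 lower (all genes: 24.1% and 19.2%). On day 35, 114 were higher and 0 lower (all genes: 16.9% and 13.1%), and on day 42, 49 were higher and 0 lower (all genes: 13.7% and 11%). The shares of members called on days 14 and 21 thus lay near or under those of all genes, and the shares on days 28, 35 and 42 lay above them. A gene with hardly a count in CTRL could enter the test only through the days on which it was high, so these counts do not describe all 194 members.

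With all 194 members in the model (at least 50 summed counts), 120 were higher on day 28 and 131 on day 35. The shares of all genes given above hold for the main fit. No such share stands beside the counts of this fit or of the next one. A fit of 2 groups at a time called 46 of 51 testable members higher on day 28 and 46 of 48 on day 35. It called 30 of 37 on day 42 and 15 of 31 on day 14. Its filter used those 2 groups alone, so a gene scarce in CTRL could enter only by being high on that day. These fractions therefore do not describe the members left out. Single mice carried part of the smaller counts: day 14 fell from 36 to 19 genes without its replicate 2, day 21 from 23 to 14 without its replicate 3, and day 42 from 49 to 24 without its replicate 3. No gene was higher on every day, and 10 were higher on 5 of the 6 days. Between BLEO-IPF groups, 19 members were higher and 0 lower on day 14 against day 7 (all genes: 9.48% and 7.55%), with 50 and 2 at an unadjusted p under 0.05 and 28 and 0 by DESeq2. The first count was 9 without day 14 replicate 2 and 28 without day 7 replicate 8. On day 42 against day 14, 23 were higher and 0 lower (all genes: 15.2% and 18.8%), with 29 and 2 at an unadjusted p under 0.05 and 19 and 1 by DESeq2. The count of 23 became 10 without day 42 replicate 3.

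*Igha*, the IgA heavy chain, rose from day 14 onwards. Its level ran from 29.1 to 137 CPM in CTRL (median 52.3), from 18.03 to 95.6 CPM on day 7 (median 46.7), from 57.1 to 1318 CPM on day 14 (median 149) and from 63.1 to 2955 CPM on day 35 (median 452). The CTRL and day 7 mice overlapped, and the medians of the later days lay above the highest CTRL mouse. On days 14, 21, 28, 35 and 42 the log2 fold change was 2.28 ± 0.58 (SE), 2.35 ± 0.58, 3.46 ± 0.61, 3.87 ± 0.62 and 2.95 ± 0.63. Adjusted p lay between 1.22e-06 and 0.000468, and no single mouse, left out in turn, ended any of these calls.

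*Ighm*, the IgM heavy chain, changed only on 2 of the 6 days. It ranged from 116 to 239 CPM in CTRL (median 168), from 41.2 to 2902 CPM on day 28 (median 261) and from 149 to 3224 CPM on day 35 (median 282). It was higher on day 28 (log2 fold change 1.73 ± 0.54, adjusted p = 0.00654) and day 35 (2.23 ± 0.55, adjusted p = 0.00103), and without day 28 replicate 10 the first became 1.07 (adjusted p = 0.0729). On days 14, 21 and 42 the log2 fold changes were -0.25, -0.38 and 0.89, none past the threshold, and the last was -0.17 without day 42 replicate 3.

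*Ighd*, the IgD heavy chain of resting B cells, went the other way. Its CTRL level of 37.1 to 93.3 CPM (median 63.7) compared with 3.69 to 49.2 CPM (median 28.2) on day 14. It fell by 1.24 ± 0.28 on the log2 scale on day 14 (adjusted p = 0.000102), by 0.81 ± 0.28 on day 21 (adjusted p = 0.0107) and by 0.68 ± 0.28 on day 28 (adjusted p = 0.0381). The day 28 call was lost on leaving out any one of 11 mice, with an adjusted p of up to 0.0815 (CTRL replicate 9 left out). On days 35 and 42 the changes were -0.39 and -0.29 and did not pass the test.

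The IgG heavy chains were scarce in CTRL lungs and rose from day 14. *Ighg2c*, an IgG2 isotype gene of C57BL/6 mice, had 0 to 0.692 CPM in CTRL (median 0.23) and 0 to 25.3 CPM on day 14 (median 1.83). It had 0.504 to 1464 CPM on day 35 (median 6.10) and 0.296 to 98.8 CPM on day 42 (median 0.794). On day 42, 4 of the 7 mice had under 1 CPM and 2 exceeded 60 CPM. Its log2 fold changes were 4.71 ± 1.64, 4.38 ± 1.68, 5.62 ± 1.56, 9.38 ± 1.47 and 6.66 ± 1.56 on days 14 to 42 (adjusted p from 7.93e-07 to 0.0231). Without day 21 replicate 8 the value of that day was 2.73 (adjusted p = 0.226), without day 35 replicate 7 it was 7.53 on day 35, and without day 42 replicate 3 it was 5.69 on day 42.

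*Ighg1* rose from a CTRL median of 2.04 CPM to 19.3 CPM on day 35 (range 0.0972 to 294). Its log2 fold changes were 2.82 ± 0.87, 2.89 ± 0.87, 3.49 ± 0.88, 4.72 ± 0.90 and 2.96 ± 0.94 on days 14 to 42. *Ighg2b* rose from 1.40 to 19.2 CPM (range 2.94 to 447), with log2 fold changes of 2.46 ± 0.79, 2.03 ± 0.80, 3.47 ± 0.79, 4.96 ± 0.81 and 2.91 ± 0.85. *Ighg3* rose from 0.346 to 17.6 CPM (range 0.336 to 382), with log2 fold changes of 3.04 ± 1.17, 2.91 ± 1.18, 2.86 ± 1.19, 6.93 ± 1.10 and 4.73 ± 1.16. All 15 adjusted p were under the threshold, the largest being 0.0455 for *Ighg3* on day 28. Calls that rested on 1 mouse were *Ighg1* (1.87) and *Ighg2b* (1.74) on day 42 without replicate 3, *Ighg2b* on day 21 without replicate 7 (1.72), and *Ighg3* on day 14 without replicate 8 (2.49), on day 21 without replicate 9 (1.76) and on day 28 without replicate 10 (2.49). Without day 35 replicate 7 the day 35 values were 3.97 for *Ighg2b* and 5.78 for *Ighg3*, both still past the threshold. Other calls that held at a lower value without 1 mouse were *Ighg2b* on day 14 (1.78 without replicate 2), *Ighg1* on day 28 (2.83 without replicate 9) and *Ighg3* on day 42 (4.00 without replicate 2). *Ighe* had 129 counts in all mice and was too low to test. On day 35 its level was 0 to 4.37 CPM with a median of 0.

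Among the light chains, *Igkc*, the kappa C gene, rose from 58.03 to 145 CPM in CTRL (median 116) to 65.5 to 1459 CPM on day 28 (median 477) and 185 to 3198 CPM on day 35 (median 317). The day 35 mice did not overlap with CTRL. The log2 fold change was 2.46 ± 0.48 on day 28, 3.21 ± 0.50 on day 35 and 1.97 ± 0.51 on day 42 (adjusted p at most 0.00306), against 0.98 and 1.00 on days 14 and 21 (adjusted p = 0.0559 and 0.0564). *Iglc1*, a lambda C gene, was higher on days 28 (1.82 ± 0.47), 35 (2.53 ± 0.47) and 42 (1.43 ± 0.51), and lost the call of day 42 without its replicate 7 (1.12). *Iglc3* was lower on day 14, with a CTRL range of 6.03 to 11.2 CPM against 0.596 to 7.96 CPM (log2 fold change -1.18 ± 0.30, adjusted p = 0.000531), and passed the test on no later day. *Iglc2* did not pass the test on any day.

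**Figure D2:**
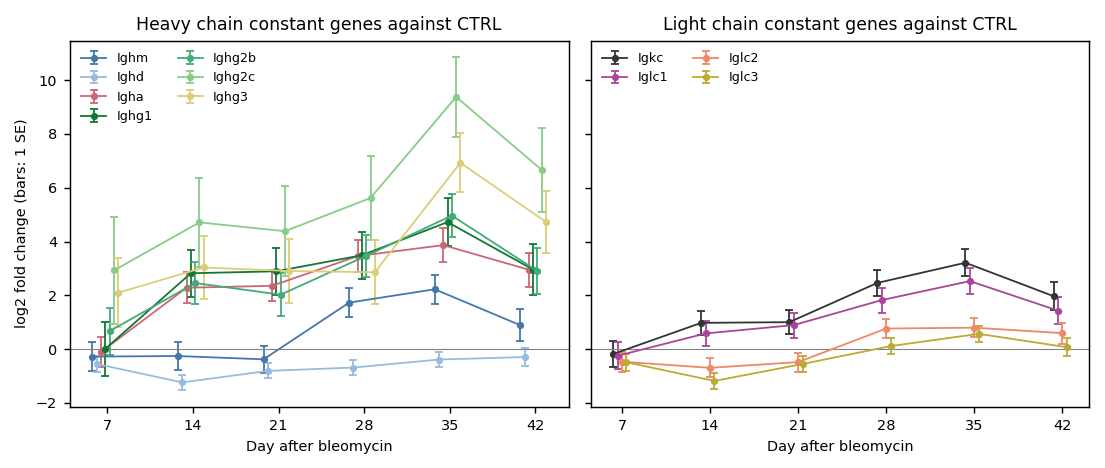
Log2 fold change against CTRL of the 11 tested constant genes on each bleomycin day, heavy chain genes in the left panel and light chain genes in the right, with bars showing 1 standard error. *Igha* and the 4 IgG genes lie above 0 from day 14, *Ighd* lies below 0 on every day, and *Ighg2c* reaches 9.38 on day 35.

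Isotype use was measured within each mouse as the share of its heavy chain C counts, which does not depend on library scaling. Differences in mean share were tested by permuting mice (two-sided, 100000 resamples, or exact permutation for the 7 mice of day 42), with adjustment over 66 tests of 11 measures on 6 days, of which 41 passed. The smallest p that the resamples can give is 2e-05, which was 0.000147 after adjustment.

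IgM was the leading isotype in every CTRL and day 7 mouse, and IgA took over in many later mice. *Igha* took 19.7% ± 8.12 (SD, n = 10) of heavy chain C counts in CTRL, with a range of 11.4 to 36.1%. Its share was 23.97% ± 9.82 on day 7 (adjusted p = 0.335), 52.4% ± 19.1 on day 14 (range 25.5 to 84.0%), 54.6% ± 19.2 on day 21, 47.9% ± 28.5 on day 28 (range 3.04 to 93.0%), 46.3% ± 22.96 on day 35 and 55.1% ± 22.1 on day 42. By permutation test, adjusted p was 0.000147 on days 14 and 21, 0.011 on day 28 and 0.00605 on day 35, and by exact permutation test 0.0019 on day 42. Above the highest CTRL mouse lay 1 of 10 mice on day 7, 9 of 12 on day 14, 10 of 12 on day 21, 8 of 12 on day 28, 9 of 12 on day 35 and 4 of 7 on day 42, so the groups overlapped on every day.

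The shares of *Ighm* and *Ighd* were lower. The isotype shares of a mouse add up to the whole, so a larger *Igha* share lowers the others even at unchanged levels. Tests of different isotypes on a day are therefore not independent. In level, *Ighm* was called lower on no day and *Ighd* on days 14, 21 and 28 alone. *Ighm* took 58.2% ± 6.24 in CTRL and 34.1%, 30.8%, 41.3% ± 28.4, 37.8% and 30.9% on days 14 to 42. Adjusted p was 0.00132, 0.00024, 0.113, 0.00749 and, by exact permutation test on day 42, 0.0019. Without day 28 replicate 10, whose heavy chain counts were nearly all *Ighm*, the day 28 difference of -17.0 points became -21.6 (adjusted p = 0.0256). *Ighd* took 20.3% ± 3.08 in CTRL and 18.7% on day 7 (adjusted p = 0.478), then 6.74%, 7.97%, 5.53%, 5.50% and 7.73% on days 14 to 42. The adjusted p of the first 4 was 0.000147 by permutation test, and that of day 42 was 0.00129 by exact permutation test. All mice of days 14, 21 and 35 lay under the lowest CTRL mouse in *Ighd* share, as did 11 of 12 on day 28 and 6 of 7 on day 42.

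*Igha* was the largest isotype by counts in 31 of 75 mice and *Ighm* in the other 44. *Igha* led in 0 of 10 CTRL and 0 of 10 day 7 mice, 7 of 12 on day 14, 8 of 12 on day 21, 6 of 12 on days 28 and 35 and 4 of 7 on day 42. Per kilobase of annotated exon, *Igha* led in 30 mice. On that scale the CTRL medians were 88.9 CPM per kilobase for *Ighm*, 33.5 for *Ighd* and 19.6 for *Igha*, and the day 35 medians were 150 for *Ighm* and 170 for *Igha*.

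**Figure D3:**
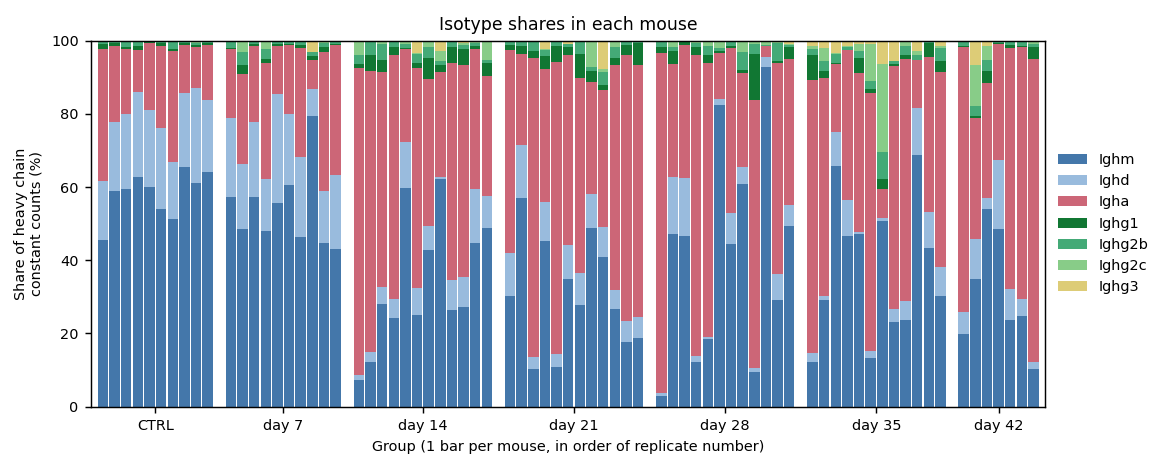
Share of heavy chain constant counts (percent) taken by each isotype in every mouse, grouped by day. *Ighm* and *Ighd* together fill most of each CTRL and day 7 bar, and *Igha* fills up to 93.0% of a bar from day 14 on, in day 28 replicate 1.

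The 4 IgG genes together held a median of 1.55% of heavy chain C counts in CTRL, and 2.09%, 7.40%, 6.19%, 4.51%, 7.76% and 2.02% on days 7 to 42. *Ighg2c* passed the test on all 6 days, from a CTRL mean of 0.0842% to 0.680% on day 7 (adjusted p = 0.0241), then 1.34%, 0.911%, 0.868% and 3.67% on days 14 to 35 (adjusted p from 0.00024 to 0.00673). Its share was 2.32% in the 7 mice of day 42 (adjusted p = 0.0381, exact permutation). Without day 42 replicate 2 that last difference was 0.751 percentage points (adjusted p = 0.0842, exact permutation), against 2.23 with it. The differences of day 21 (0.827 points) and day 35 (3.59 points) became 0.271 without day 21 replicate 8 and 1.72 without day 35 replicate 7, and the difference of day 7 (0.595 points) became 0.335 without day 7 replicate 2. *Ighg1* rose from 0.792% to 2.79% on day 14 and 3.14% on day 21, *Ighg2b* from 0.733% to 1.95%, 1.66% and 2.32% on days 14, 21 and 35, and *Ighg3* from 0.138% to 2.16% on day 35. *Ighe* passed on no day. In the mouse with the largest IgG share, day 35 replicate 7, IgG held 40.5% of heavy chain C counts, of which *Ighg2c* was 24.2%, *Ighg2b* 7.39% and *Ighg3* 6.31%, beside 8.09% *Igha* and 50.8% *Ighm*.

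Individual mice of one day differed widely. On day 28, replicate 10 had 92.9% *Ighm* at a heavy chain C level of 3122 CPM and replicate 1 had 93.0% *Igha*. On day 35, replicate 5 held 43.3% *Igha* and 47.2% *Ighm* at 6827 CPM.

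In C gene counts, the lambda share was lower from day 14 on. The lambda genes took 19.9% ± 3.74 of light chain C counts in CTRL (range 14.4 to 27.8%) and 17.5% on day 7 (adjusted p = 0.173). On days 14 to 42 the share was 9.70%, 12.1%, 10.3%, 10.7% and 10.2%, with adjusted p from 0.000147 to 0.000621 (permutation, exact on day 42). All 7 mice of day 42 lay under every CTRL mouse, as did 11, 10, 10 and 9 of 12 on days 14 to 35. The V genes did not show the same fall on every day, and their lambda share was not tested. Mean lambda V counts were 49.5 in CTRL and 90.6, 109.5, 209, 303 and 162 on days 14 to 42. Mean kappa V counts were 432.7 in CTRL and 935, 864, 2185, 3577 and 1561. Leaving out the mouse whose omission narrowed the difference most ended none of the calls of *Igha*, *Ighd* or lambda share on days 14 to 42.

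V gene use became more concentrated on fewer segments per mouse. To compare mice of unequal depth, V counts were thinned to 109 heavy chain and 170 kappa counts in every mouse. The leading kappa V gene then took 7.00% ± 1.43 in CTRL (range 5.95 to 10.8%), 10.5% on day 7 (adjusted p = 0.0184), then 10.9%, 11.8%, 13.2% and 14.1% on days 14 to 35 (adjusted p from 0.000147 to 0.00189). On day 42 it took 18.1% ± 10.0 (range 9.19 to 35.4%; adjusted p = 0.00129, exact permutation). Above the highest CTRL mouse lay 5 of 10 mice on day 7, 5, 8, 8 and 10 of 12 on days 14 to 35, and 4 of 7 on day 42. Without thinning the tests gave the same calls.

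The leading heavy chain V gene took 8.99% ± 3.64 in CTRL (range 6.46 to 16.9%), 11.2% on day 7 (adjusted p = 0.313), 11.6% on day 14 (adjusted p = 0.141), 12.9% on day 21 (adjusted p = 0.0265), 12.7% on day 28 (adjusted p = 0.0335) and 13.3% on day 35 (adjusted p = 0.0188). On day 42 it took 16.02% ± 7.45 (range 8.57 to 27.6%; adjusted p = 0.0373, exact permutation). At most 3 mice of a day lay above the highest CTRL mouse. The calls of days 28 and 42 were lost without day 28 replicate 10 (difference 3.23 points, adjusted p = 0.0558) and day 42 replicate 4 (5.10 points, adjusted p = 0.0806, exact permutation). Summed by subgroup instead of gene, the largest heavy chain share was that of the *Ighv1* subgroup in all mice, and its differences from CTRL ran from -8.99 to 0.607 points.

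The effective number of V genes, which is the number of equally used genes that would give the same concentration, was lower on every day. Its mean for kappa V genes was 34.5 in CTRL and 26.5, 23.2, 21.8, 21.4, 18.9 and 18.7 on days 7 to 42, and for heavy chain V genes 28.4 in CTRL and 23.97, 21.96, 19.6, 19.9, 18.7 and 17.2. These values are a description and were not tested. In kappa V genes all 12 mice of day 35 lay under every CTRL mouse.

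**Figure D4:**
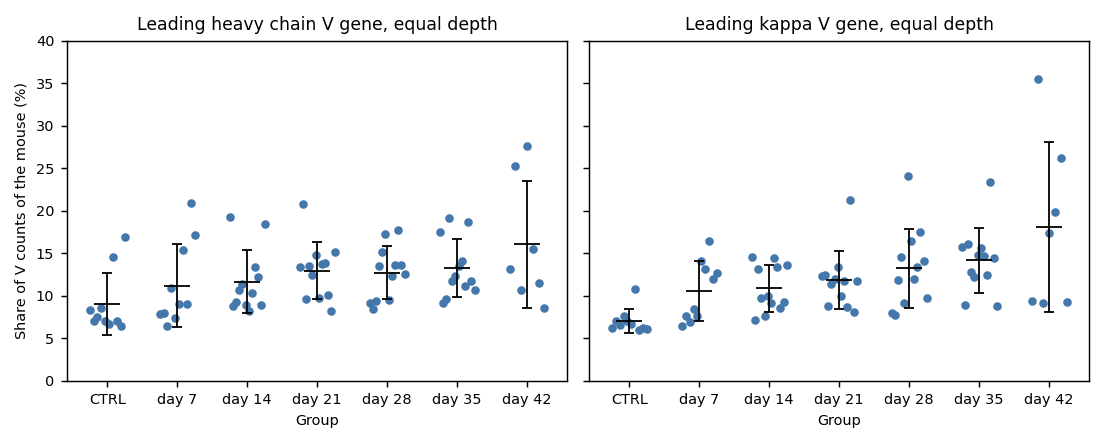
Share of V counts (percent) taken by the leading heavy chain V gene and the leading kappa V gene in each mouse after thinning to 109 and 170 counts, with each group's mean and SD as a line and error bar. The kappa shares lie between 5.95 and 10.8% in CTRL and reach 35.4% on day 42.

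The leading gene differed from mouse to mouse. Over 75 mice, 33 heavy chain V genes and 27 kappa V genes led at least 1 mouse, and the most frequent were *Ighv3-6* in 9 mice and *Igkv19-93* in 12. *Igkv10-96* led 10 mice and *Igkv15-103* and *Igkv6-23* led 7 each, while *Ighv1-26* led 5. Within a group, the leaders were 7 different heavy chain V genes among the 7 mice of day 42 and 11 among the 12 of day 35, and 5 and 11 different kappa V genes. Per base of exon the leader was the same gene in 71 mice for heavy chains and 73 for kappa. *Iglv1* led the lambda V genes in all 75 mice.

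The strongest dominance occurred in single mice of day 42, where no clonotype was read and only V segment counts are known. In replicate 2, *Igkv19-93* took 417 of 1179 kappa V counts, which is 35.4% (exact 95% interval 32.6 to 38.2%), and *Ighv7-1* took 177 of 703 heavy chain V counts, 25.2% (22.01 to 28.6%). The same mouse had 21.0% IgG. In replicate 4, *Ighv1-76* took 111 of 404 heavy chain V counts, 27.5% (23.2 to 32.1%), and *Igkv10-94* led the kappa genes with 17.3%. In replicate 6, *Igkv19-93* took 205 of 785 kappa V counts, 26.1%. These intervals cover counting error only, since the reads carried no molecular identifiers. Elsewhere, *Igkv8-30* took 24.1% in day 28 replicate 6 and *Igkv4-57-1* took 23.4% in day 35 replicate 10.

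**Figure D5:**
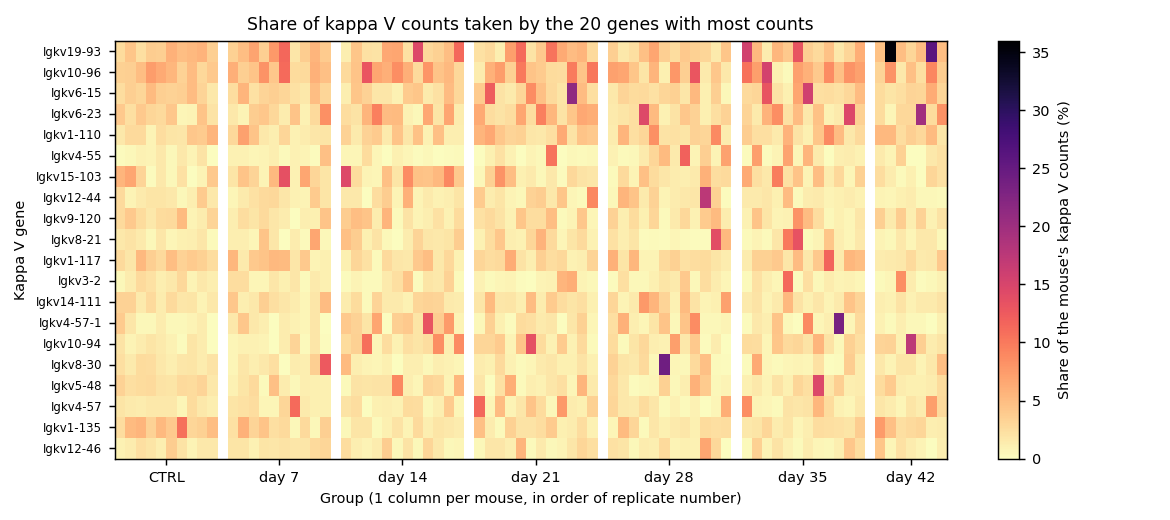
Share of kappa V counts (percent) of the 20 kappa V genes with the most counts in each of the 75 mice, ordered by group, with darker cells for larger shares. *Igkv19-93* reaches 35.4% in day 42 replicate 2 and 26.1% in replicate 6, and *Igkv4-57-1* reaches 23.4% in day 35 replicate 10.

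On day 35, 53 of the 61 heavy chain, 49 of the 61 kappa and 2 of the 3 lambda V genes tested were higher than in CTRL. The share over all genes was 16.9%. A further 25 heavy chain and 22 kappa V members had too few counts to be tested. A V gene scarce in CTRL could enter only through the days on which it was high, so these counts do not describe all V members. The V genes named here are the 10 heavy chain, 8 kappa and 3 lambda genes with the most counts summed over all mice. The day 35 mice had the highest mean V level of any group, so ranking by this sum favours genes that were high on day 35, and their values are a description. *Ighv1-26* rose from a CTRL median of 1.19 CPM to 5.60 CPM, with 76.4 CPM in the highest mouse (log2 fold change 3.93 ± 0.65, adjusted p = 2.39e-06). *Ighv1-53* rose from 0.428 to 4.48 CPM (4.57 ± 0.68, adjusted p = 3.02e-07), and *Ighv3-6* from 0.822 to 6.33 CPM (3.67 ± 0.70, adjusted p = 3.4e-05). These 2 were higher on each day from 14 to 42. *Ighv1-80* changed by 4.42, *Ighv8-12* by 4.08, *Ighv1-9* by 3.49, *Ighv9-3* by 3.03, *Ighv1-82* by 2.96, *Ighv1-64* by 2.63 and *Ighv1-19* by 2.07 on the log2 scale. Without day 35 replicate 5 the value of *Ighv8-12* was 2.41, and without replicate 2 that of *Ighv1-19* was 1.56 (adjusted p = 0.065). Without replicate 7, *Ighv1-9* was at 2.65 and *Ighv9-3* at 2.29.

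Of the kappa V genes, *Igkv10-96* rose from 1.67 to 11.8 CPM (3.34 ± 0.55), *Igkv19-93* from 1.35 to 7.27 CPM (3.59 ± 0.63) and *Igkv6-15* from 1.29 to 7.20 CPM, with 158 CPM in the highest mouse (3.96 ± 0.63, and 2.64 without replicate 7). *Igkv4-55* changed by 5.37, *Igkv1-110* by 3.52, *Igkv12-44* by 3.43 (4.77, 2.77 and 2.27 without replicate 5), *Igkv15-103* by 3.07 and *Igkv6-23* by 3.03. *Iglv1* rose from 2.82 to 19.1 CPM (3.00 ± 0.46, adjusted p = 3.95e-07), *Iglv2* changed by 2.05 (adjusted p = 0.00888), and *Iglv3* by 1.28 without passing the test (adjusted p = 0.0618).

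Genes of the cells that make immunoglobulin were described from lists of marker genes. *Jchain*, the joining chain of secreted IgA and IgM, had a median of 11.3 CPM in CTRL and of 43.9, 57.3, 148, 143 and 79.2 CPM on days 14 to 42, with log2 fold changes of 2.17, 2.22, 3.79, 4.53 and 3.27. Of the 10 tested genes of the plasma cell list, 4, 5, 4, 4, 5 and 3 were higher and 1, 2, 1, 1, 1 and 0 lower on days 7 to 42. Of all genes tested, 24.8%, 32.4%, 28.3%, 24.1%, 16.9% and 13.7% were higher and 21%, 29.9%, 25.8%, 19.2%, 13.1% and 11% lower on these days. *Prdm1*, which encodes the plasma cell transcription factor Blimp-1, was lower on days 7 to 35 (log2 fold changes -0.62, -0.66, -0.51, -0.39 and -0.37), and *Pou2af1*, a B cell coactivator, was lower on day 14 (-0.69). *Irf4*, another plasma cell transcription factor, and *Fkbp11* passed the test on no day. *Sdc1*, a plasma cell surface proteoglycan that epithelium also makes, was higher on all 6 days. Of the 6 tested genes of the germinal centre list, 4, 4, 3, 4, 3 and 2 were higher and 0, 1, 1, 0, 0 and 0 lower on days 7 to 42, beside the same shares of all genes. In that list, *S1pr2* and *Gcsam* were higher on 6 days, *Mybl1* on 5 and *Fas* on 3. *Cr2* was lower on 2 days, and *Bcl6* passed the test on no day. The B cell list, by contrast, was lower early: 9, 11 and 10 of 12 genes were lower on days 7, 14 and 21, and 0 on days 28, 35 and 42, beside the shares of all genes given above. On day 14 the log2 fold changes were -1.32 for *Cd79b* and -1.35 for *Cd79a*, parts of the B cell receptor, and -1.40 for *Ms4a1* (CD20). The summed level of the list had a median of 316 CPM in CTRL, 148 CPM on day 14 and 227 CPM on day 42, and 11 of the 12 genes were higher on day 42 than on day 14.

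Of the 10 tested genes that bind or carry antibody, 5, 5, 5, 5, 5 and 4 were higher and 1, 3, 2, 2, 0 and 0 lower on days 7 to 42. Of all genes tested, 24.8%, 32.4%, 28.3%, 24.1%, 16.9% and 13.7% were higher on these days. The shares of all genes lower were 21%, 29.9%, 25.8%, 19.2%, 13.1% and 11%, and the lower counts of this list lay near or under them. The Fc receptor genes *Fcgr1*, *Fcgr3* and *Fcgr4* and their signalling chain *Fcer1g* were higher on all 6 days, with *Fcgr1* at a log2 fold change of 3.05 on day 14. *Pigr*, which carries polymeric IgA across epithelium, was lower on days 14, 21 and 28 (-0.86, -0.54 and -0.65). On days 35 and 42, when *Igha* was higher as well, *Pigr* had log2 fold changes of -0.05 and -0.32 (adjusted p = 0.890 and 0.363). In the list of signals for plasma cell survival, homing and class switching, 4, 5, 4, 4, 3 and 3 of 8 tested genes were higher and 0, 1, 2, 1, 0 and 1 lower on days 7 to 42. The same shares of all genes stand beside these counts. *Cxcl13*, a B cell attractant, was higher on 5 days with 2.95 on day 14, and *Cxcl12* and *Il6*, which support plasma cells, on 5 days each. *Tnfsf13b*, which encodes the B cell survival factor BAFF, was higher on day 7 (0.24) and lower on days 21, 28 and 42 (-0.21, -0.27 and -0.29). *Tnfsf13*, which encodes the related factor APRIL, was lower on days 14 and 21 (-0.62 and -0.63).

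Markers of neighbouring tissue were checked beside these results. In lymph node genes, *Ccl21a*, *Glycam1* and *Madcam1* had group medians at or near 0, and *Chst4* was lower on 3 days. No T cell gene of 8 tested was higher on any day against CTRL, and 2 were lower on day 14 and 1 on day 35. Of all genes tested, 29.9% and 13.1% were lower on these 2 days. *Vpreb3*, a gene of immature B cells, was lower on all 6 days (log2 fold change from -2.16 to -1.002). *Rag1*, expressed in developing lymphocytes, reached 18.6 CPM in CTRL replicate 9 and was lower on 5 days. The thymus genes *Ptcra* and *Foxn1* stayed at or under 0.16 and 0.40 CPM in every mouse. Of the 4 tested genes of the thymus list, 4, 3, 2, 0, 2 and 1 were lower and 0 higher on days 7 to 42, beside the shares of all genes given above. Summed levels in CTRL reached 45.4 CPM for the thymus list (median 15.7) and 50.3 CPM for the immature B cell list (median 23.1). The part of these genes in the immunoglobulin results was not tested.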

How the data were processed

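Per the labels, libraries of polyA RNA were made with a stranded kit (NEBNext Ultra II Directional) and sequenced for 75 cycles, and the submitters' processing notes name STAR 2.7.0f and GRCm38 (mm10). The deposited values were raw read counts per gene, 1 column per mouse. The counting program, its strand setting and its treatment of multiply mapped reads are not given in the sources used here, and they bear on V segments that share sequence. Biotypes came from Ensembl release 96, and all 55536 gene identifiers matched.

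Counts were tested with edgeR 4.0.16 (R 4.3.3): TMM scaling, filterByExpr with a minimum count of 10, group means over 75 mice, quasi-likelihood F test, and Benjamini-Hochberg adjustment over 16221 genes. CPM used TMM-scaled library sizes. Shares were computed per mouse and tested by permutation in scipy 1.17.1, after thinning V counts in 200 draws. Only the edgeR step was tested on simulated counts. Alternatives were DESeq2 1.42.0, other scalings and filters, a fit of 2 groups, logit shares, V subgroups, and leaving out mice. No 2 libraries of a group agreed within sampling noise (lowest chi-square per degree of freedom 4.11 over 375 pairs).

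The members and the marker lists were chosen with earlier results of these data known. Named genes were every C gene, the 10 heavy chain, 8 kappa and 3 lambda V genes with most summed counts, V genes with at least 30% of a mouse's V counts, and at most 4 genes per list by days past the threshold. *Ighv12-3*, *Pigr* and other genes or leading V segments of single mice outside this rule were named after their values were seen. The labels give 1 library per mouse, so p-values measure the spread between mice.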

Additional observations from a re-analysis of the deposited data

Results flagged for a closer look

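In 72 sets of values checked (a measure within a group of 4 to 10 mice), 23 held a mouse far from the others by Dixon's criterion. Its rate of about 1 in 20 by chance is for independent, normally distributed values. Several sets here came from the same mice and some were skewed, so the number that chance would give is not known. Day 7 replicate 8 stood apart most often, with a summed heavy chain C level of 530 CPM (next mouse 301), *Ighm* at 420 CPM (next 145) and 79.3% of heavy chain counts, *Ighg3* at 15.99 CPM (next 0.582) and 3.02%, *Igkc* at 219 CPM, *Iglc1* at 18.9 CPM and *Iglc3* at 12.1 CPM. Day 42 replicate 3 was far above its group in summed heavy chain C level (2465 CPM, next 1223), *Ighm* (1333 CPM, next 214), *Ighg2b* (71.2 CPM, next 15.01), *Iglc2* (39.5 CPM), *Iglc3* (27.7 CPM) and *Ighe* (0.606 CPM). Day 42 replicate 2 stood apart in the shares of *Ighg2c* (11.2%, next 4.01%) and *Ighg3* (6.73%, next 1.37%).

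Among CTRL mice, replicate 9 was high in *Ighg3* (1.58 CPM and 0.438% of heavy chain counts) and *Ighg2c* (0.692 CPM), replicate 1 in *Ighg1* (5.39 CPM), and replicate 7 in the share of its leading kappa V gene (10.8%, next 7.54%). On day 7, replicate 5 had the highest *Ighe* share (0.127%) and replicate 2 the highest *Ighg1* share (2.42%, next 1.32%).

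Changes against CTRL also differed between days by the test of the days against each other (edgeR, adjusted p). From day 7 to day 14 the log2 difference was 2.39 for *Igha* (adjusted p = 0.0026) and 2.81 for *Ighg1* (adjusted p = 0.0174). From day 14 to day 42 it was 0.94 for *Ighd* (adjusted p = 0.0121), 1.25 for *Iglc3* (adjusted p = 0.00194) and 1.29 for *Iglc2* (adjusted p = 0.00591).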

How the results depend on the processing

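The counts of immunoglobulin genes called stayed within 1.5 times under library size scaling, upper quartile factors, scaling without these genes and the robust fit. A fit of the 2 groups compared filters genes on those groups alone and so tests fewer members. It gave 0 higher and 3 lower on day 7, 15 higher on day 14, 2 lower on day 21 and 46 higher on days 28 and 35. The higher counts were 30 on day 42, 10 on day 14 against day 7 and 14 on day 42 against day 14. DESeq2 gave 2 higher and 2 lower on day 7, 0 lower on day 28 and 1 lower on day 42 against day 14. Without a filter 0 were lower on day 28, and with at least 50 summed counts 1 was lower on day 42 against day 14. The cause of these differences was not tested.

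Replicate numbers did not pair the mice: over 204 pairs with the same number the median correlation of deviations was 0.006 (range -0.54 to 0.57), against 0.002 over 2196 other pairs. With the replicate number as a block, 12 genes were higher on day 42 against day 14, and 5 share tests no longer passed: *Ighg2c* on day 42 (2.26 points), the leading heavy chain V share on days 21 (4.20), 28 (3.61) and 42 (7.51) and the leading kappa V share on day 42 (10.7). Other counts stayed within 1.5 times under the block.

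Leaving out each mouse in turn, chosen after seeing the data, gave 19 to 37 higher and 2 to 3 lower on day 14, 14 to 28 higher and 1 to 2 lower on day 21, 93 to 109 higher and 0 to 1 lower on day 28, 104 to 116 higher on day 35, 24 to 53 on day 42, 9 to 28 higher and 0 to 2 lower on day 14 against day 7, and 10 to 32 higher and 0 to 1 lower on day 42 against day 14. The sign turned, without a call, for *Ighm* on day 42 (-0.17 to 1.04 on the log2 scale) and *Iglc3* on day 42 (-0.55 to 0.22), each without day 42 replicate 3, and for *Iglc3* on day 28 (-0.046 to 0.20) without day 28 replicate 10.

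Leaving out the mouse that gives the lowest or highest difference, share differences in points ranged from -0.0173 to 0.00243 (day 7) and -0.0179 to 0.00837 (day 35) for *Ighe*, 0.751 to 2.61 for *Ighg2c* on day 42, 0.832 to 1.27 for *Ighg2b* on day 28, and -0.104 to 0.144 (day 7) and 0.952 to 1.57 (day 35) for *Ighg1*. For *Ighg3* they ranged from -0.0111 to 0.324 on day 7, 0.339 to 0.639 on day 14 and 0.277 to 1.39 on day 42, and for *Ighm* from -6.96 to -2.93 on day 7 and -21.6 to -13.5 on day 28. For the leading heavy chain V share they ranged from 1.95 to 3.52 on day 14, 3.23 to 4.56 on day 28 and 5.10 to 8.27 on day 42.

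On the logit scale *Ighe* became lower on days 21 (-0.794) and 28 (-1.32) and *Ighg3* higher on day 14 (1.03), and the sign turned without a call for *Ighe* on day 35 (-0.901) and *Ighg1* on days 7 (-0.0937) and 42 (-0.00576). With *Ighd* left out of the total, *Ighg2c* on day 42 (2.44 points) and *Ighg2b* on day 21 (0.891) no longer passed, *Ighm* on day 28 did (-29.2), and *Ighe* on day 35 was -0.00498. Summed by V subgroup, the leading heavy chain share differed by -8.99, -2.06, -2.92, 0.607, -5.63 and -5.08 points on days 7 to 42, past the threshold on day 7 alone, and the leading kappa share by 2.11 on day 7 (not past it). Requiring at least 500 heavy chain C counts left out no mouse. Depth limits the J segments, *Ighe* and V genes with few counts.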
